A study of Mus musculus with 16 samples.

Results

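The MHC class I and immunoproteasome genes are 10 mouse genes that make, fill and switch on the class I antigen-presenting molecule. They were chosen by symbol: B2m, H2-K1, H2-D1, Tap1, Tap2, Tapbp, Psmb8, Psmb9, Psmb10 and Nlrc5. All 10 were found among the 18167 genes with a deposited value, and each had a value in all 16 mice.

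RNA was sequenced from the whole spinal cord of mice, all given as male, that carry a human profilin 1 transgene. The transgene is driven by the mouse prion protein (Prnp) promoter, which is active in many tissues and not in motor neurons alone. WY (n = 3) and WO (n = 5) are C57BL/6N mice with wild-type human PFN1 (Prnp-PFN1, transgene insertion 850Kiaei), and MY (n = 3) and MO (n = 5) are C57BL/6N mice with the mutant form (Prnp-PFN1*G118V, transgene insertion 838Kiaei), a line in which motor neuron disease develops with age. The young mice of both lines were 50 days old. The old mutant mice were taken at end stage, at 175 to 245 days, and the old wild-type mice at 190 to 294 days. Each line is a transgene insertion of its own, so that the mutation, the insertion site and the transgene level cannot be told apart.

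An MHC class I molecule is a heavy chain held by beta-2 microglobulin that shows peptides from inside a cell to CD8 T cells and natural killer cells. The peptides are cut by proteasomes, in which immunoproteasome subunits can replace the constitutive catalytic subunits, and are pumped into the endoplasmic reticulum and loaded there. Class I levels are low in the healthy central nervous system, interferons raise them, and class I on neurons has been linked to synapse remodelling.

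Values are the deposited log2(1 + FPKM), where FPKM is the number of fragments scaled to the length of the transcript and to the number of mapped fragments, corrected by the authors for 2 batches of library preparation. Differences are on this scale, which is the scale of 1 + FPKM and understates the fold change of FPKM, most for Nlrc5 and Tap1 and also for Psmb9 and Psmb8. A gene is called where limma, fitted to all 18167 genes, gave a false discovery rate (FDR) of at most 0.05 together with a change of 1.5-fold or more on this scale (0.585 in log2) in either direction. The study lists fragment totals for each mouse, but the counts behind each value were not used here, so precision is read from the spread between mice. H2-K1 and H2-D1 belong to a family of genes with nearly the same sequence, which share reads, so that their separate levels are uncertain.

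Mouse MO5 stands apart from its label as a male, and its sex was not tested further. In MO5 alone, Xist was the most abundant of the 5 sex-linked genes listed. Its Xist level was 3.21, against -0.36 to 0.37 in the other 15 mice, and its level of the Y-linked gene Ddx3y was 1.95, against 4.06 to 4.74. Each call below was also made without it: the same 9, 8 and 7 members stayed called in MY vs. MO, in WO vs. MO and in the comparison of the age effects, and no member's difference moved by more than 0.08. All young mice and MO1 to MO3 and WO1 to WO3 are of batch 1. MO4, MO5, WO4 and WO5 are of batch 2, and WO4 and WO5 were also the oldest mice, so that for them batch and age cannot be told apart.

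In the wild-type old cord the members spanned a wide range of levels. Turned back to FPKM from the WO group mean, B2m stood at 165, H2-D1 at 53.0, H2-K1 at 24.6, Psmb10 at 22.5, Tapbp at 14.8, Tap2 at 7.39, Psmb8 at 3.61, Psmb9 at 1.88, Tap1 at 1.43 and Nlrc5 at 0.370. Neighbours whose WO mice overlapped in this order were H2-K1 with Psmb10 and Psmb9 with Tap1. In MO the order by FPKM was B2m at 464, H2-D1 at 122, H2-K1 at 71.0, Psmb10 at 24.7, Tapbp at 23.4, Psmb8 at 12.3, Tap2 at 8.79, Psmb9 at 4.18, Tap1 at 3.38 and Nlrc5 at 1.11. Psmb8 had passed Tap2, although their log2 ranges in MO still met (3.49 to 4.00 and 3.16 to 3.51), and Psmb10 with Tapbp and Psmb9 with Tap1 also overlapped.

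The comparison of old mutant with old wild-type mice (WO vs. MO) asks what differs in the cord at end stage. Of the 10 members, 8 rose in MO, and none fell; among all genes 4.08% were called higher. The median log2 difference was 0.85 over the members and 0.00 over all genes. For the same 8 members, all but Tap2 and Psmb10, the 5 MO mice stood above all 11 other mice, which held for 7.58% of all genes. In a bulk tissue, more cells of a type and more RNA per cell cannot be told apart.

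B2m encodes beta-2 microglobulin, the light chain that every class I molecule shares. Its log2 level was 8.74, 9.13, 9.14, 8.74 and 8.54 in MO1 to MO5, and 7.41, 7.76, 7.62, 6.92 and 7.18 in WO1 to WO5. The young mice had 7.34, 7.17 and 7.37 in WY and 7.27, 7.37 and 7.10 in MY. All 5 MO mice were high, each of them above the other 11 mice, and WY, MY and WO overlapped. B2m was 1.48 higher in MO than in WO (SE 0.17, FDR = 0.000133 by limma), or 2.79-fold on the scale of 1 + FPKM.

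H2-K1, a classical heavy chain that binds the peptide, had log2 levels of 6.28, 6.34, 6.35, 5.98 and 5.89 in MO1 to MO5 and of 4.90, 4.70, 4.84, 4.28 and 4.66 in WO1 to WO5. In the young mice it stood at 4.77, 4.58 and 4.58 in WY and at 4.46, 4.56 and 4.56 in MY. Again the MO mice formed a group of their own, with MO4 and MO5, the batch 2 mice, as its lowest. The difference between MO and WO was 1.49 (SE 0.13, FDR = 2.89e-05 by limma, all 5 MO above all 5 WO).

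H2-D1, the other classical heavy chain of this strain, was measured at 7.10, 7.14, 7.09, 6.68 and 6.72 in MO1 to MO5 and at 6.03, 5.77, 5.80, 5.40 and 5.77 in WO1 to WO5. Its WY mice had 5.71, 5.58 and 5.65, and its MY mice 5.57, 5.58 and 5.60. MO did not overlap with any other group, and the MY mice lay closest together (SD 0.01). The difference between MO and WO was 1.19 (SE 0.13, FDR = 8.96e-05 by limma, all 5 MO above all 5 WO).

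The fitted rises of the heavy chains, 1.49 (95% interval 1.21 to 1.78) for H2-K1 and 1.19 (0.91 to 1.48) for H2-D1, have overlapping intervals. The log2 ratio of H2-K1 to H2-D1 in FPKM was -0.82, -0.81, -0.74, -0.71 and -0.85 in MO1 to MO5, and it ranged from -1.16 to -0.96 in the other 11 mice. H2-D1 was thus the more abundant in every mouse, and the gap between the heavy chains was narrower in each MO mouse than in any other mouse. Reads shared between the genes were not separated, and the ratio was not tested.

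Tap1 and Tap2 encode the subunits of the peptide pump of the endoplasmic reticulum. Tap1 stood at log2 levels of 2.21, 2.01, 2.32, 2.07 and 2.04 in MO1 to MO5 and at 1.39, 1.27, 1.35, 1.12 and 1.29 in WO1 to WO5, with 0.99 to 1.32 in the 6 young mice. All MO mice were above all others. Tap1 was 0.85 higher in MO than in WO (SE 0.07, FDR = 2.36e-05 by limma).

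Tap2 was measured at 3.29, 3.16, 3.51, 3.22 and 3.27 in MO1 to MO5 and at 3.33, 3.06, 3.04, 2.94 and 2.96 in WO1 to WO5. WO1 lay above 4 of the 5 MO mice, and the groups overlapped. The difference from WO was 0.22 (95% interval 0.04 to 0.41, FDR = 0.0743 by limma), not called. The young mice had 2.97, 2.70 and 2.81 in WY, which overlapped with WO, and 2.51, 2.63 and 2.74 in MY, which lay below all WO mice. Against MY the difference of MO was 0.67 (SE 0.08, FDR = 0.00105 by limma, all 5 MO above all 3 MY), which was called.

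Tapbp encodes tapasin, which holds the empty class I molecule at the pump. Its levels were close within groups: 4.64, 4.62, 4.72, 4.46 and 4.60 in MO1 to MO5, against 3.91 to 4.04 in the other 11 mice. MO was higher than WO by 0.62 (SE 0.05, FDR = 2.16e-05 by limma). Against MY the difference was 0.60, just past the fold threshold, and the call was lost without MO replicate 3 (0.57) or without MY replicate 2 (0.58).

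Psmb8, Psmb9 and Psmb10 encode the immunoproteasome subunits that take the places of Psmb5, Psmb6 and Psmb7. The log2 levels of Psmb8 were 3.68, 3.92, 4.00, 3.49 and 3.61 in MO1 to MO5 and 2.50, 2.26, 2.32, 2.06 and 1.88 in WO1 to WO5. In the young mice they were 2.29, 1.96 and 2.21 in WY and 2.13, 1.96 and 1.91 in MY. The MO mice were all high, and no other group stood apart. MO was 1.53 higher than WO (SE 0.13, FDR = 2.48e-05 by limma), or 2.89-fold on the scale of 1 + FPKM, and with a pseudocount of 0.1 in place of 1 the difference was 1.75. The interval of Psmb8 (1.25 to 1.82) overlaps with those of H2-K1 (1.21 to 1.78) and B2m (1.11 to 1.86), so that these members are not ranked.

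Psmb9 had levels of 2.22, 2.33, 2.55, 2.55 and 2.21 in MO1 to MO5 and of 1.44, 1.53, 1.80, 1.26 and 1.61 in WO1 to WO5, and the young mice ranged from 0.99 (WY2) to 1.66 (MY1). MO did not overlap with the others, and the spread of the WY mice (SD 0.35) was the widest of the 4 groups. The difference between MO and WO was 0.84 (SE 0.10, FDR = 0.000212 by limma).

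Psmb10 was measured at 4.31, 4.80, 4.66, 4.89 and 4.77 in MO1 to MO5, at 4.69, 4.54, 4.55, 4.43 and 4.55 in WO1 to WO5, at 4.75, 4.33 and 4.57 in WY and at 4.41, 4.44 and 4.36 in MY. MO1 was the lowest of all 16 mice and MO4 the highest. The difference between MO and WO was 0.13 (95% interval -0.08 to 0.35, FDR = 0.365 by limma), and between MO and MY 0.28 (0.01 to 0.55, FDR = 0.12); neither was called. Both depend on MO1, the mouse with the lowest sum of red blood cell markers: without it they were 0.23 (FDR = 0.0198 by limma) and 0.38 (FDR = 0.00321), past the FDR but below the fold threshold.

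Set against its constitutive counterpart in the same mouse, Psmb8 made up 11.8%, 11.03%, 12.9%, 7.62% and 9.10% of the summed FPKM of Psmb8 and Psmb5 in MO1 to MO5. In the other 11 mice this share was 2.52% to 3.64%. The share of Psmb9 in Psmb9 and Psmb6 was 2.77% to 3.76% in MO and 0.939% to 2.08% in the others, again without overlap. Psmb10 made up 9.51% to 11.8% of Psmb10 and Psmb7 in MO and 9.14% to 11.3% in the others, so that these ranges overlapped. Psmb10 was the subunit with the highest share in the mice other than MO, and in MO the mean shares of Psmb8 (10.5%) and Psmb10 (11.2%) were close. These shares compare RNA and not assembled proteasomes, and they were not tested.

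**Figure D1:**
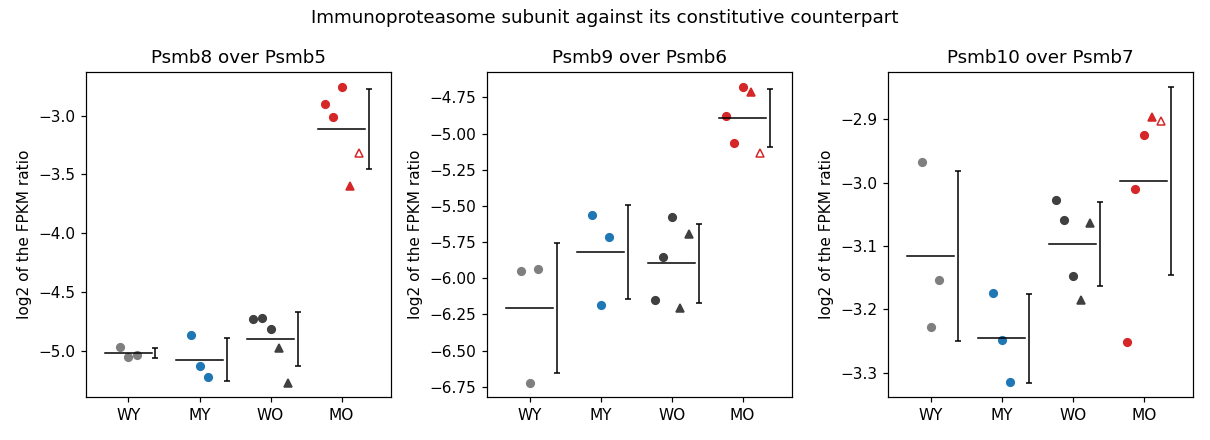
The log2 ratio of FPKM of each immunoproteasome subunit to its constitutive counterpart is plotted for every mouse by group (circles batch 1, triangles batch 2, open symbol MO5; line, group mean; bar, SD). For Psmb8 over Psmb5 the MO mice lie between -3.60 and -2.75 and the others at or below -4.72, while the groups overlap for Psmb10 over Psmb7.

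Nlrc5 encodes the transactivator that drives transcription of class I genes and several of their partners. It had the lowest level of the members, at log2 values of 1.18, 1.04, 1.17, 1.03 and 0.95 in MO1 to MO5 and of 0.54, 0.44, 0.53, 0.29 and 0.46 in WO1 to WO5. The young mice ranged from 0.31 to 0.53, and all MO mice were above all others. The difference between MO and WO was 0.62 (SE 0.06, FDR = 5.74e-05 by limma), just past the fold threshold. With a pseudocount of 0.1 in place of 1 the same difference was 1.37, and that of Tap1 was 1.18. The call of Nlrc5 in WO vs. MO was lost after quantile normalization (0.53) and without WO replicate 4 (0.58).

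**Figure D2:**
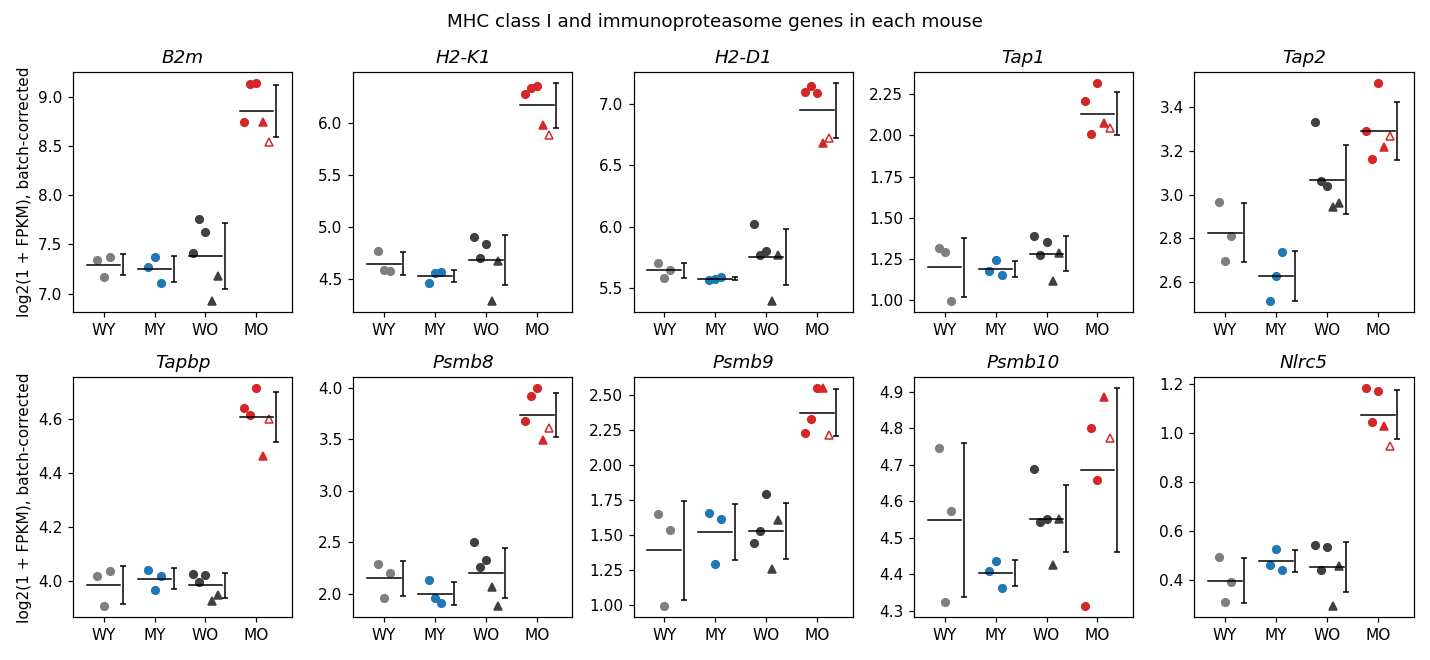
Log2(1 + FPKM) of the 10 members in each of the 16 mice, by group (circles batch 1, triangles batch 2, open symbol MO5; line, group mean; bar, SD). The MO mice lie above all other mice for 8 members and overlap with them for Tap2 and Psmb10.

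The comparison of young with old mutant mice (MY vs. MO) asks what differs between the young age and end stage in the same line. Here 9 of the 10 members rose, all but Psmb10, against 4.11% of all genes called higher, with a median of 0.89 over the members and 0.00 over all genes. Because this comparison shares the MO mice with WO vs. MO, the values are set side by side and no agreement between them is counted. B2m differed by 1.61 (SE 0.14) against MY and by 1.48 against WO. For H2-K1 the values were 1.64 and 1.49, for H2-D1 1.37 and 1.19, for Tap1 0.94 and 0.85, and for Psmb8 1.74 and 1.53. Psmb9 had 0.85 and 0.84, Tapbp 0.60 and 0.62, and Nlrc5 0.60 and 0.62. The FDR by limma in MY vs. MO was at most 0.00134 for the 9 called members. As for Tapbp, the call of Nlrc5 in MY vs. MO was lost without MO replicate 1 (0.57), MO replicate 3 (0.57) or MY replicate 3 (0.58), and also with quantile normalization (0.49).

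The young mice of both lines, compared to see whether the mutation has an effect at 50 days (WY vs. MY), showed no called member. limma called 0 of the 10 members, against 0.0055% of all genes (1 gene), and 0 members had an unadjusted p under 0.05, against 7.16% of all genes. Differences ran from -0.20 for Tap2 to 0.13 for Psmb9, with a median of -0.06 over the members and -0.00 over all genes. For B2m the 95% interval was -0.26 to 0.16 and for Psmb8 -0.39 to 0.10, so that a rise of the size seen in MO lay outside both.

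In wild-type mice, whose groups differ in age and, for WO4 and WO5, also in batch (WY vs. WO), limma also called 0 of the 10 members, against 0.253% of all genes, and 1 member, Tap2, had an unadjusted p under 0.05, against 13.5% of all genes. The difference of Tap2 was 0.24 (95% interval 0.02 to 0.47, FDR = 0.322 by limma), with overlapping mice. The other 9 members lay between -0.00 for Tapbp and 0.14 for Psmb9. The median was 0.07 over the members and 0.00 over all genes. The interval of B2m was -0.32 to 0.49 and that of Psmb8 -0.26 to 0.38. Within batch 1 (3 mice each) all 10 differences were positive and several were larger: 0.30 for B2m (95% interval 0.05 to 0.55, FDR = 0.287 by limma), 0.22 for H2-D1, 0.21 for Psmb8, 0.17 for H2-K1 and 0.32 for Tap2. limma again called 0 of the 10 there, against 0.402% of all genes, with 3 at an unadjusted p under 0.05, against 12.9% of all genes, and the median was 0.18 over the members and 0.01 over all genes.

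**Figure D3:**
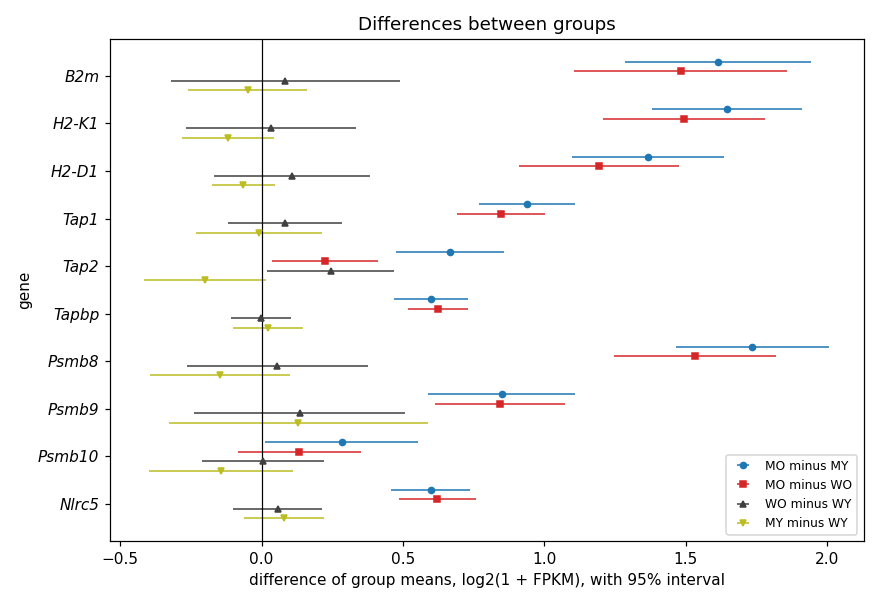
Differences of group means in log2(1 + FPKM) with 95% intervals for each member: MO minus MY, MO minus WO, WO minus WY and MY minus WY. The intervals against MO lie above 0 for every member except Psmb10 against WO, and the intervals of the other comparisons include 0 except for Tap2 in WO minus WY.

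Whether age acts differently in the lines was tested as the age effect in mutant minus the age effect in wild-type mice. This difference was called for 7 members, each with the larger age effect in mutant mice, as for 4.65% of all genes. The median was 0.79 over the members and 0.01 over all genes. It was 1.68 for Psmb8 (SE 0.20, FDR = 7.32e-05 by limma), 1.61 for H2-K1, 1.53 for B2m, 1.26 for H2-D1, 0.86 for Tap1, 0.71 for Psmb9 and 0.60 for Tapbp. Tap2 (0.42, FDR = 0.0437) and Nlrc5 (0.54, FDR = 0.00121) passed the FDR but not the fold threshold, and Psmb10 (0.28, FDR = 0.259) passed neither. Psmb9 was no longer called with the batch 1 mice alone (0.65, FDR = 0.113) or with a pseudocount of 0.1 (0.90, FDR = 0.0678), nor without MO replicate 3, MY replicate 2, WO replicate 4, WY replicate 1 or WY replicate 3 (FDR from 0.0507 to 0.095). Tapbp fell under the fold threshold without MO replicate 3, MY replicate 2, WY replicate 1 or WY replicate 3 (0.57 to 0.58). Nlrc5 passed it with a pseudocount of 0.1 (1.13) and without WY replicate 2 (0.59).

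Within each batch the old groups differed much as they did when pooled. B2m was 1.41 higher in MO than in WO in batch 1 (3 mice each) and 1.59 higher in batch 2 (2 mice each). The same pair of values was 1.52 and 1.46 for H2-K1, 1.24 and 1.12 for H2-D1, and 1.503 and 1.578 for Psmb8. For Tap1 they were 0.84 and 0.86, for Tapbp 0.64 and 0.60, for Psmb9 0.78 and 0.95, and for Nlrc5 0.63 and 0.61. Tap2 differed by 0.18 and 0.29. Psmb10 differed by -0.01 in batch 1 and 0.34 in batch 2, the only member with a difference that changed sign. In batch 1 the MO and WO mice overlapped for Tap2 and Psmb10. Separation of so few mice within a batch is a weak criterion. Its share over all genes was not computed, so members separated in this way are not counted. The young groups were all of batch 1, so that no batch 2 value exists for them.

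The mice of a group tended to be high or low for many members together. In MO, MO3 was the highest mouse for 6 of the 10 members, and MO5 was the lowest for 4 and MO4 for 3. In WO, WO1 was the highest for 8 members and WO4 the lowest for 9. MO2 was the lowest for 2 members and MO1 for 1, and MO4 was also the highest for 2, Psmb9 and Psmb10. In WO the lowest mouse was of batch 2 for all 10 members, and those mice were also the oldest. WO4 stood apart in Mbp, a myelin gene named after its values were seen, at 5.36 against 12.16 to 14.22 in the other 15 mice. Without WO4, 7 members were called in WO vs. MO (Nlrc5 lost) and 6 for the age effects (Psmb9 lost). MO1 stood apart in the summed red blood cell markers, at 38.6 FPKM against 132 to 296 in the other 15 mice. The part of either in the class I result was not tested.

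Outside the 10 members, 99 of 112 genes listed for the class I pathway were in the table, and 0 of them were called lower by limma in WO vs. MO or MY vs. MO, where 0.517% and 0.787% of all genes were. For the counts that follow, the share of all genes called higher was 4.08% in WO vs. MO and 4.11% in MY vs. MO. In the same order, the share at an unadjusted p under 0.05 was 38.5% and 36.7%. The share past the FDR at any fold was 27.9% and 25.6% by limma. Among 21 other class I heavy chains with a value (24 listed), 4 rose in WO vs. MO, with a median of 0.09 over the list and 0.00 over all genes. Of these 21, limma put 7 at an unadjusted p under 0.05 and 6 past the FDR, near the shares over all genes. H2-Q4 stood at 2.81 to 3.31 in MO and at 1.41 to 2.05 in the other 11 mice, a difference of 1.21 from WO (SE 0.14, FDR = 0.00014 by limma). H2-Q7 differed by 0.88, H2-T23, the mouse Qa-1 chain that holds leader peptides of other class I chains, by 0.75, and H2-T9 by 0.72. In MY vs. MO 5 heavy chains rose (median 0.28), these 4 and H2-M3 (0.75, FDR = 0.000545 by limma), which was named after its values were seen. The call of H2-T9 in MY vs. MO was lost without MY replicate 2 (0.58), and with each mouse left out in turn the list held 4 to 6 called genes. Leaving mice out of the fits of these lists and of the marker lists below was chosen after the values were seen. Reads of these genes are shared with H2-K1 and H2-D1 and among themselves. Of 8 class I-like chains with a value (13 listed), 2 rose in both comparisons (median in WO vs. MO 0.20): Procr, the endothelial protein C receptor, by 0.90 against WO, and Hfe, a regulator of iron uptake, by 0.59. The call of Hfe was lost without MO replicate 1 in both comparisons (0.48 against WO and 0.55 against MY), and against WO also without WO replicate 5 (0.56). Mr1, named after its values were seen, gained the call in MY vs. MO without MO replicate 4 (0.61). With each mouse left out in turn this list held 1 to 3 called genes in MY vs. MO and 1 to 2 in WO vs. MO.

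Of the 12 other genes of peptide loading and trimming, limma called 0 in either comparison, with 4 at an unadjusted p under 0.05 in WO vs. MO and 6 in MY vs. MO, of which 4 and 5 passed the FDR but not the fold threshold. The median was -0.00 in WO vs. MO, and leaving out MO replicate 1 or MO replicate 5 gave 1 call in MY vs. MO, Lnpep (-0.59 in each case, named after its values were seen). Pdia3 and Calr, the chaperones of the loading complex, differed from WO by 0.03 (95% interval -0.17 to 0.24) and -0.08 (-0.39 to 0.23). Of the 3 constitutive catalytic subunits limma also called 0, with 1 at an unadjusted p under 0.05 in each comparison. Psmb5 differed from WO by -0.01 (-0.21 to 0.20), Psmb6 by 0.15 (0.01 to 0.30, FDR = 0.116 by limma) and Psmb7 by 0.04 (-0.09 to 0.17). The 11 other core proteasome subunits held 0 called genes by limma (0 at an unadjusted p under 0.05 in WO vs. MO and 3 in MY vs. MO), with medians of 0.09 and 0.16. Among 10 activators and assembly factors 1 rose in both comparisons (median in WO vs. MO 0.10). This was Psme1, a subunit of the activator cap PA28 that opens the proteasome core, with 5.20 to 5.44 in MO and 4.52 to 4.92 in the others and a difference of 0.69 from WO (SE 0.06, FDR = 3.2e-05 by limma). Its partner Psme2 differed by 0.40 (FDR = 0.00318 by limma, all 5 MO above all 5 WO), below the fold threshold.

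Of 17 transcriptional regulators of class I, 2 rose in both comparisons (median in WO vs. MO 0.07). Irf8, a factor of myeloid cells, stood at 3.01 to 3.57 in MO and 1.08 to 1.70 in the others and was 1.87 higher in MO than in WO (SE 0.14, FDR = 2.16e-05 by limma). Irf9, the DNA-binding part of the complex that type I interferons activate, was 0.71 higher. Irf1, a factor induced by interferon gamma, differed by 0.47 (FDR = 0.000921 by limma, all 5 MO above all 5 WO), below the fold threshold. Ciita, which plays for class II the part that Nlrc5 plays for class I, differed by -0.07 (FDR = 0.169 by limma, mice overlapping). Among the interferons and their receptors 7 of 9 had a value and 1 rose in both comparisons (median in WO vs. MO 0.13). It was Ifngr1, the ligand-binding chain of the interferon gamma receptor, by 0.87 against WO (SE 0.09, FDR = 7.14e-05 by limma, all 5 MO above all 5 WO). Ifng and Ifnb1 are not in the table.

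Among the receptors that read class I or belong to families that do, 10 of 13 had a value and 3 rose in both comparisons (median in WO vs. MO 0.10). Lilrb4a, an inhibitory receptor of myeloid cells, had levels of 3.65, 3.59, 4.19, 2.82 and 3.05 in MO1 to MO5 and of -0.26 to 0.60 in the other 11 mice. It was 3.22 higher in MO than in WO (SE 0.26, FDR = 2.33e-05 by limma). Lilr4b was 1.31 higher and Pirb, an inhibitory receptor that binds class I on myeloid cells and neurons, 0.79 higher. Cd8a, the co-receptor of the T cells that read class I, stood at 0.06 to 0.15 in MO and -0.01 to 0.04 in the others, near 0 in every mouse (difference from WO 0.09, FDR = 0.0412 by limma, below the fold threshold). Cd8b1 is not in the table.

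Marker genes of cell types moved with these groups as well. Of all genes, 4.08% were called higher and 0.517% lower in WO vs. MO. In MY vs. MO these shares were 4.11% and 0.787%. Of 10 microglia markers 8 rose in WO vs. MO and 9 in MY vs. MO, with medians of 1.37 and 1.33. The ninth call, Tmem119 in MY vs. MO (0.60), was lost without MO replicate 2 (0.54), MO replicate 5 (0.56) or MY replicate 3 (0.58). Their summed level was 559.6, 857, 1007, 576 and 599 FPKM in MO1 to MO5 and at most 239 in each of the other 11 mice. None of the 10 was at 0 in any mouse; P2ry12, a marker of resting microglia, differed by 0.10 (FDR = 0.623 by limma, mice overlapping). Of 8 astrocyte markers 4 rose in WO vs. MO and 2 in MY vs. MO, and their sum was 3611, 4419, 3955, 3406 and 3575 FPKM in MO1 to MO5 against 1864 to 2462 in the others, with none at 0. Gfap was the most abundant in 14 of the mice and Aldoc in WO1 and WO5. The call of Aldh1l1 in MY vs. MO (0.62) was lost without MO replicate 1 (0.56). The part of either cell type in the class I result was not tested.

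Of 7 neuron markers, 2 fell in WO vs. MO and in MY vs. MO (Nefl and Nefm), and their sum was 2909, 3029, 2792, 3308 and 2826 FPKM in MO1 to MO5 against 3548.5 to 4506 in the others, with Snap25 as the most abundant. Of 7 motor neuron markers 1 fell in WO vs. MO (Chat), while limma called 0 in MY vs. MO, with 5 at an unadjusted p under 0.05 in each comparison, all 5 past the FDR, and medians of -0.49 and -0.30, and with sums of 88.0 to 115 in MO and 107 to 151 in the others and Prph as the most abundant. None of these markers was at 0. Their part in the class I result was not tested.

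Markers of T cells and of natural killer cells, which read class I, stood at low levels in every mouse. For T cells 8 of 10 markers had a value, and limma called 0 of them in either comparison, with 3 at an unadjusted p under 0.05 in WO vs. MO, all 3 past the FDR but not the fold threshold, and 2 in MY vs. MO. Their sum was 1.05, 1.15, 0.874, 1.02 and 1.32 FPKM in MO1 to MO5 and 0.451 to 0.845 in the other 11 mice. Lck was the most abundant, and Cd3g, Cd8a and Cd2 were at or below 0 in at least 1 mouse. Several mice shared exactly 1 low value of Cd3e (0.0124), of Cd3d (0.00882), of Cd4 (0.00465) and of Cd247 (0.0220). A 0 moved by the batch correction would give such equal values, so that these markers may also be undetected in those mice. For natural killer cells and cytotoxic granules 3 of 7 markers had a value, and limma called 0 of them in either comparison. In WO vs. MO limma put 2 at an unadjusted p under 0.05, 1 of them past the FDR, and in MY vs. MO 0. The sum was 0.218 to 0.401 in MO and 0.0318 to 0.289 in the others. Outside WY, Nkg7 was the most abundant in every mouse, and Klrb1c was at or below 0 in at least 1 mouse. In all 3 WY mice Nkg7 had the same value (0.0287), as had Ncr1 (0.00620), and WY2 and WY3 also shared that of Klrb1c (0.0106). These may likewise be moved 0s, so that no marker is ranked in WY2 and WY3. Prf1, Gzma and Gzmb are not in the table. The part of these cells in the class I result was not tested.

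The 8 endothelial and pericyte markers had 0 calls by limma in WO vs. MO, but 7 were at an unadjusted p under 0.05 and 6 passed the FDR, all lower in MO and under the fold threshold (median -0.49). In MY vs. MO limma also called 0 of them, with 3 at an unadjusted p under 0.05, 1 past the FDR and a median of -0.13. With each mouse left out in turn 0 to 3 of them were called in WO vs. MO. Kdr gained the call without MO replicate 4, WO replicate 1 or WO replicate 4, Cdh5 without MO replicate 3, MO replicate 5 or WO replicate 4, and Rgs5 without any of MO replicates 3 to 5 or of WO replicates 4 and 5, with differences from -0.66 to -0.59. Their sums were 42.7 to 57.7 FPKM in MO and 57.0 to 84.0 in the others, with Rgs5 as the most abundant in every mouse but MO2, WO5 and WY1, where it was Cldn5. The 5 border macrophage markers had 0 calls by limma in WO vs. MO and 2 at an unadjusted p under 0.05, both past the FDR (in MY vs. MO 0 calls, 3 and 2), with sums of 2.28 to 3.03 FPKM in MO and 1.17 to 2.25 in the others, led by Pf4 in every mouse but MO1. With each mouse left out in turn 0 to 1 of them were called in MY vs. MO, as Pf4 gained the call without MO replicate 1 (0.60). Neither list had a marker at 0, and the part of either in the class I result was not tested. Of the markers of B cells, of neutrophils and monocytes and of red blood cells limma called 0 in WO vs. MO, with 2 of 3, 1 of 5 and 1 of 5 at an unadjusted p under 0.05 and 1, 0 and 0 past the FDR. Of those of Schwann cells, meningeal fibroblasts and ependymal cells it also called 0, with 0 at an unadjusted p under 0.05. In MY vs. MO limma called 0 in these 6 lists, with 1 marker of B cells and 1 of Schwann cells at an unadjusted p under 0.05, both past the FDR. The 8 Hox genes of the trunk cord, as a check of the tissue, were present in every mouse, with sums of 152 to 193 FPKM.

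Outside the members and lists, the 5 genes with the profile over the 16 mice nearest to the mean profile of the 9 members with a mean of at least 1 were Cd34, Anxa3, Gngt2, Plcb2 and Tbxas1, among 17957 genes ranked. Likeness was the mean absolute difference between z-scored profiles, and it was 0.141 for Cd34, 0.157 for Anxa3, 0.168 for Gngt2, 0.168 for Plcb2 and 0.171 for Tbxas1. By the same measure the members themselves lay between 0.153 (H2-D1) and 0.546 (Psmb10). Cd34, a surface sialomucin, stood at 4.65 to 5.04 in MO and 3.34 to 3.92 in the others. All 5 genes had the MO mice above all others. Choosing genes by likeness to the members' profile selects for this, so that it is not a separate result.

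By position, 7 members lie on chromosome 17 within 1351601 bases (GENCODE M21 on GRCm38). Tapbp lies at chr17:33915899-33929292 and H2-K1 at chr17:33996017-34000347. Psmb9 (chr17:34181987-34187764, minus strand) and Tap1 (chr17:34187553-34197225, plus strand) overlap at their starts, so that reads from the overlap cannot be given to 1 of them without the strand; the libraries were stranded, and whether the counting used the strand is not stated. Psmb8 follows at chr17:34197721-34201454, Tap2 at chr17:34203527-34216321 and H2-D1 at chr17:35262730-35267499. B2m lies at chr2:122147686-122153083, Nlrc5 at chr8:94434356-94527272 and Psmb10 at chr8:105935735-105938444. The neighbours Psmb9, Tap1, Psmb8 and Tap2 thus held 3 members that rose in WO vs. MO and 1 that did not pass the test.

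Because 8 members rose together, the letters of 5 motifs were searched on both strands of the promoter windows of RefSeq (GRCm38.p6; 250 bases before to 50 after the start), which hold 8 members and lack Tap2 and Nlrc5. In H2-D1, Tapbp, Psmb8 and Psmb9 the RefSeq start lies 364, 3579, 474 and 434 bases inside the GENCODE range given above, so that their whole windows lie within it. H2-K1 has 2 windows, of which 1 was searched. The motifs were picked after the members' promoters had been seen. GGGNNTTCC, the letters of a kappa-B-like site, was found in 2 members, H2-K1 and H2-D1, and in 5.82% of all 32851 windows. GAAANNGAA, the core of an interferon-stimulated response element, was found in 1 (B2m) and in 8.56% of all windows, and TTCNNNGAA, the letters of a gamma-activated site, in 1 (Psmb8) and in 8.30%. TGACG, the core of the X2 box, was found in 5 members and in 20.8% of all windows, and CCAAT, the core of the Y box, in 6 and in 37.4%. The stretches of 30 bases below are shown because their genes carried the largest rises or share the motif; capitals mark the motif, and the stretches of a gene do not overlap. The heavy chain stretches lie at chr17:34000439-34000468 (minus strand) and chr17:35262913-35262942 (plus), that of B2m at chr2:122147538-122147567 (plus) and that of Psmb8 at chr17:34198088-34198117 (plus).
H2-K1 GGGNNTTCC: gcccagggctGGGGATTCCccatctccaca
H2-D1 GGGNNTTCC: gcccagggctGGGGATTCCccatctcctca
B2m GAAANNGAA: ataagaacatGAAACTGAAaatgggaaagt
Psmb8 TTCNNNGAA: tcctccgctgTTCCCAGAAgatgccccccc

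The X2 box core stood in B2m (chr2:122147597-122147626, plus strand), H2-K1 (chr17:34000371-34000400, minus), H2-D1 (chr17:35262981-35263010, plus) and Tap1 (chr17:34187458-34187487, plus), with the capitals again marking the motif. The windows of Psmb9 and Tap1 overlap on opposite strands, and the TGACG match of Psmb9 is the site of Tap1 read from the other strand, as is its CCAAT match, so that each of these motifs was counted in both genes from 1 site. A match is a description of letters and neither a site nor a cause.
B2m TGACG: ctaggagactggTGACGacctccggatctg
H2-K1 TGACG: tccggacactgtTGACGcgcagtcagctct
H2-D1 TGACG: ccgggacactgaTGACGcgctggcaggtct
Tap1 TGACG: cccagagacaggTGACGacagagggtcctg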

How the data were processed

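The authors used Trimmomatic for trimming, TopHat (mm10) for alignment and Cufflinks for FPKM, removed genes at 0 in many of the samples and corrected the deposited log2(1 + FPKM) values for batch with parametric ComBat; versions, annotation and ComBat covariates are not stated. The correction left 915 values below 0, none of them a member's. These values were used as deposited, with every sample column and all 18167 genes.

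Each comparison was fitted with limma 3.58.1 in R 4.3.3 on its own 2 groups (second minus first, no covariate, two-sided), with Benjamini-Hochberg adjustment over all genes. The comparison of age effects used 1 fit of the 16 mice. Tables and figures were made with Python 3.11.15, pandas 2.3.3, NumPy 2.4.6 and matplotlib 3.10.9. The fitting code was tested on simulated data.

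Members and lists were chosen with earlier results of these data known. Named genes are all members, up to 6 genes of each pathway list (those called in WO vs. MO and set partners of members), marker lists, and the 5 nearest profiles. All 10 members passed the authors' filter, and 9 had a mean log2 value of at least 1.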

Additional observations from a re-analysis of the deposited data

Results flagged for a closer look

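For 7 members the age effect differed between the lines by the test of that difference, in the direction of a larger effect in mutant mice. The difference of the age effects was 1.53 for B2m (FDR = 0.000663 by limma), 1.61 for H2-K1 (FDR = 7.01e-05) and 1.26 for H2-D1 (FDR = 0.000292). It was 0.86 for Tap1 (FDR = 0.000268), 0.60 for Tapbp (FDR = 9.27e-05), 1.68 for Psmb8 (FDR = 7.32e-05) and 0.71 for Psmb9 (FDR = 0.031). The calls of Psmb9 and Tapbp depend on settings. Psmb9 lost its call in 7 of 23 alternatives, among them batch 1 mice only (FDR = 0.113 by limma), which left 6 members, and a pseudocount of 0.1 (FDR = 0.0678). It also lost it without MO replicate 3 (FDR = 0.0539), MY replicate 2 (0.0887), WO replicate 4 (0.0507), WY replicate 1 (0.095) or WY replicate 3 (0.0774). Tapbp lost its call in 4, without MO replicate 3 (0.57), MY replicate 2 (0.58), WY replicate 1 (0.58) or WY replicate 3 (0.58), by the fold threshold. For each of the 7 members all 5 MO mice were above the other 11 mice, and the cause was not tested.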

How the results depend on the processing

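A member's difference lost its call in 6 of 159 recomputed values in MY vs. MO, 2 of 179 in WO vs. MO and 11 of 229 for the age effects, gained it in 2 of 229 for the age effects, and changed sign in 1 of 179 in WO vs. MO, 18 of 159 in WY vs. WO and 7 of 119 in WY vs. MY. The number of members called stayed at 7 to 9 in MY vs. MO, 7 to 8 in WO vs. MO and 5 to 8 in the comparison of age effects when each mouse was left out in turn. Mice with the same number are different animals, and 6 of the 20 same-numbered pairs correlated above 0.1 (r from -0.23 to 0.41). With the replicate block the counts of members called by limma were 9 in MY vs. MO, 8 in WO vs. MO, 0 in WY vs. WO, 0 in WY vs. MY and 7 for the age effects, with 1108, 840, 63, 1 and 1008 genes in all. A filter at a mean log2 value of 1 removes Nlrc5.

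Counts over all genes moved as follows. A pseudocount of 0.1 gave 1483 genes in MY vs. MO (890 with a pseudocount of 1), 1529 in WO vs. MO (836) and 1548 for the age effects (1020). The FDR with no minimum fold change gave 4646, 5075 and 3210 in the same order, and 204 in WY vs. WO (46 with the minimum). WY vs. WO gave 73 with batch 1 mice only, 80 with batch as a term and 7 (without WY replicate 3) to 64 with each mouse left out in turn. WY vs. MY, with 1 gene, gave 2 among genes with a mean of at least 1, 4 with 1 fit of all 4 groups, 2 with an intensity trend and 1 to 5 with each mouse left out in turn.

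Signs reversed only for differences that were not called. Psmb10 in WO vs. MO was -0.00501 with batch 1 mice only. Tapbp in WY vs. WO was 0.0287 with batch 1 mice only, with batch as a term and with the replicate block, and 0.00336 with quantile normalization. Tap1 in WY vs. MY was 0.00178 with quantile normalization. With each mouse left out in turn, WY vs. WO ranged from -0.0119 to 0.198 for B2m, -0.0222 to 0.132 for H2-K1, -0.0206 to 0.14 for Tap1, -0.0428 to 0.0223 for Tapbp, -0.0413 to 0.138 for Psmb8, -0.0650 to 0.264 for Psmb9 and -0.107 to 0.103 for Psmb10. In the same way WY vs. MY ranged from -0.111 to 0.0222 for B2m, -0.113 to 0.0472 for Tap1, -0.0175 to 0.0476 for Tapbp and -0.0705 to 0.259 for Psmb9. The cause was not tested. The counts behind each value were not used here, so that the spread between 3 or 5 mice sets what could be detected.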
